A study of Mus musculus with 6 samples.

Results

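Genes that hepatocytes use to make plasma proteins and to run liver metabolism were followed in a mouse hepatocellular carcinoma line and in lines selected from it for migration. The set holds 40 genes chosen by name, each read through the 1 probe set with the highest mean over all 6 arrays among those annotated with that symbol alone. By this rule 37 of the 40 were measured, out of 18194 genes on the array. Trf, Gc and C3, which encode transferrin, the vitamin D-binding protein and complement component 3, had no probe set assigned to them alone and were not analysed here. The question was which of these differentiated liver genes lay above the array median at all, and whether their signal differed between the lines.

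The selected lines were M1 and I1, which the labels describe as migratory subpopulations selected from BL185, and the line they were compared with was BL185 itself, the parent. All 3 lines were labelled as hepatocellular carcinoma cells grown in DMEM with fetal bovine serum, and no treatment other than the selection was named. Each line was measured on 2 Affymetrix arrays, which report 1 log2 signal per probe set. M1 and I1 are called subclone lines, so each may stand for a single derivation, and no subclone that had not been selected for migration was among the arrays. Whether a line's 2 arrays stand for 2 cultures is not stated, so each p-value below reflects variation between arrays only, and that variation could be technical.

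Hepatocytes secrete most of the proteins of blood plasma, among them albumin, the apolipoproteins that carry lipid, the carriers of iron, copper, haem and retinol, and the clotting factors. They also hold the urea cycle, gluconeogenesis, the breakdown of several amino acids and the cytochromes P450 that oxidise drugs and steroids. Transcription factors of the HNF1, HNF4, C/EBP and FOXA families bind the promoters of many of these genes in liver, and hepatocellular carcinomas can retain part of this programme while losing the rest.

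The promoters of 6 genes that carry the results below are shown so that the liver factor motifs before each start can be read. They are the 3 genes above the 75th percentile of all 6 arrays, Hpx, which passed it on 4, and Fgb, called lower in M1. Albumin is shown as the classical hepatocyte gene. Each is the 250 bases before the annotated start, 5′ to 3′ on the gene's own strand, from RefSeq on GRCm38.p6. Capitals mark matches to the motifs searched. For Rbp4 and Cp, which have 2 annotated starts each, 1 start is shown.
Rbp4 chr19:38124812-38125061 (minus strand): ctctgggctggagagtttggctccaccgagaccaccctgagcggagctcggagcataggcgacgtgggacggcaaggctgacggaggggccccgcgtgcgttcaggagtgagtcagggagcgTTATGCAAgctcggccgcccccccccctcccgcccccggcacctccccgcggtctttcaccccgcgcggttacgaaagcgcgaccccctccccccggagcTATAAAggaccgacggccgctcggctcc
Apob chr12:7977427-7977676 (plus strand): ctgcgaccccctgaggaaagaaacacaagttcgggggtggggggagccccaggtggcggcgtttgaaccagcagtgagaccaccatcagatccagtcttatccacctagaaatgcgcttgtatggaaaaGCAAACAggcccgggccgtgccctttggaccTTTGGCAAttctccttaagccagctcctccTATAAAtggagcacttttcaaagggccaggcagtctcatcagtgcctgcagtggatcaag
Cp chr3:19956999-19957248 (plus strand): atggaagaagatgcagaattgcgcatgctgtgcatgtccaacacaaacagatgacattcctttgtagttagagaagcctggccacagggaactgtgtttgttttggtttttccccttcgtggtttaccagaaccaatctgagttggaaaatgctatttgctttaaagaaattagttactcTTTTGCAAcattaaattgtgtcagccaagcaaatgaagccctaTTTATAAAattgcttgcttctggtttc
Hpx chr7:105600117-105600366 (minus strand): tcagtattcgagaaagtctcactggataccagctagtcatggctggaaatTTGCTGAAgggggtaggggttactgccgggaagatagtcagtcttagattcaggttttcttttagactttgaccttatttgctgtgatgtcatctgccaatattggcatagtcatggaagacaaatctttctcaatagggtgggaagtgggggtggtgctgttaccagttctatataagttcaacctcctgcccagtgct
Fgb chr3:83049864-83050113 (minus strand): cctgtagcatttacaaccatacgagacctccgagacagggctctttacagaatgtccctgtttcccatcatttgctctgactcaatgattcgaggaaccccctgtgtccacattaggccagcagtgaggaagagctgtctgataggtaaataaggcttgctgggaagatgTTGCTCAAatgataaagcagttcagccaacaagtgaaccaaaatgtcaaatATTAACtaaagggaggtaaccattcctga
Alb chr5:90460620-90460869 (plus strand): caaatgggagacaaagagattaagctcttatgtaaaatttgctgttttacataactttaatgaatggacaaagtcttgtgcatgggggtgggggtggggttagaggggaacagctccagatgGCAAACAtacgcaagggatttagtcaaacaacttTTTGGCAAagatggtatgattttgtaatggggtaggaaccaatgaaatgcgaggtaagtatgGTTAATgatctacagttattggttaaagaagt

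The motifs were searched on both strands over these 250 bases. TTGCNNAA, a C/EBP motif, occurs in 9.56% of all promoters of this length, the HNF1 half-site GTTAAT in 6.43%, the FOXA forms TGTTTGC in 4.30% and TGTTTAC in 3.17%, the HNF4 motif CAAAGTCCA in 0.384% and the TATA box TATAAA in 12.4%. A longer form of the HNF1 motif occurs in 0.0609% of them. TTGCNNAA was present before all 6 genes, at bases -80 to -73 before Fgb and at -94 to -87 before Alb. The 6 were picked for the results below, and other genes of the set lacked this motif. Their count therefore cannot be set against its share of all promoters. The HNF1 half-site lay at -29 to -24 before Fgb and at -32 to -27 before Alb, and the TGTTTGC form of the FOXA motif before Apob and Alb. Rbp4, Apob and Cp had a TATA box, which in Cp was matched on both strands over overlapping bases. A match is a description of letters and not of a bound site. Promoters were at hand for 29 of the 37 genes, below 80%, so a share of genes with each motif would be void and is not given.

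The arrays had medians over all 45101 probe sets between 7.87 and 8.11 log2 units. M1 array 1 stood apart: its values had an SD over probe sets of 1.62, against 1.83 to 1.97 on the other 5 arrays. The SD between the 2 arrays of a line, over all genes, was 0.651 in M1, 0.158 in I1 and 0.102 in BL185. The 3′ probe set for 18S ribosomal RNA read 12.50 and 10.68 in M1, 11.27 and 11.51 in I1, and 10.11 and 10.14 in BL185, so it was highest on M1 array 1 and lowest in BL185. The 3′ minus 5′ difference of the Actb controls, which grows as labelled RNA shortens, was 1.43 and 1.24 in M1, 1.47 and 1.43 in I1, and 1.08 and 0.88 in BL185. M1 array 1 enters the pooled spread of every test. Where the M1 difference of a gene of the set is stated, it is given both ways if it moved by over 1.5 times without that array. Differences not stated could move as well, for Ahsg from 0.80 to 0.02 and for Kng1 from 0.60 to 0.11.

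In these tumour lines most of the differentiated liver genes lay near or below the array median. Of the 37, 12 (32.4%) were above the median on all 6 arrays, against 57.1% of all 18194 genes. They were the apolipoprotein genes Apoa2, Apob, Apoh and Apom, the carrier genes Ttr, Rbp4, Hpx and Cp, the kininogen gene Kng1, and the enzyme genes Cps1, Tat and Cyp2e1. For Apoh, Apom, Ttr, Cp and Kng1, another probe set of the gene was not above the median throughout. Line by line, 14 of 37 were above on both M1 arrays, 15 on both I1 arrays and 15 on both BL185 arrays, against 59.3%, 65.7% and 63.8% of all genes. The additions to the 12 were Proc and Vtn in M1, Apoa1, Alb and Proc in I1, and Fgb, Vtn and Itih3 in BL185. Without M1 array 2, 22 genes counted as above in M1. A line drawn higher, at each array's 75th percentile, left 3 genes on all 6 arrays (Rbp4, Cp and Apob), against 29.5% of all genes. Hpx passed that line on the 4 arrays of M1 and I1. A further 12 genes were above the median on no array.

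**Figure D1:**
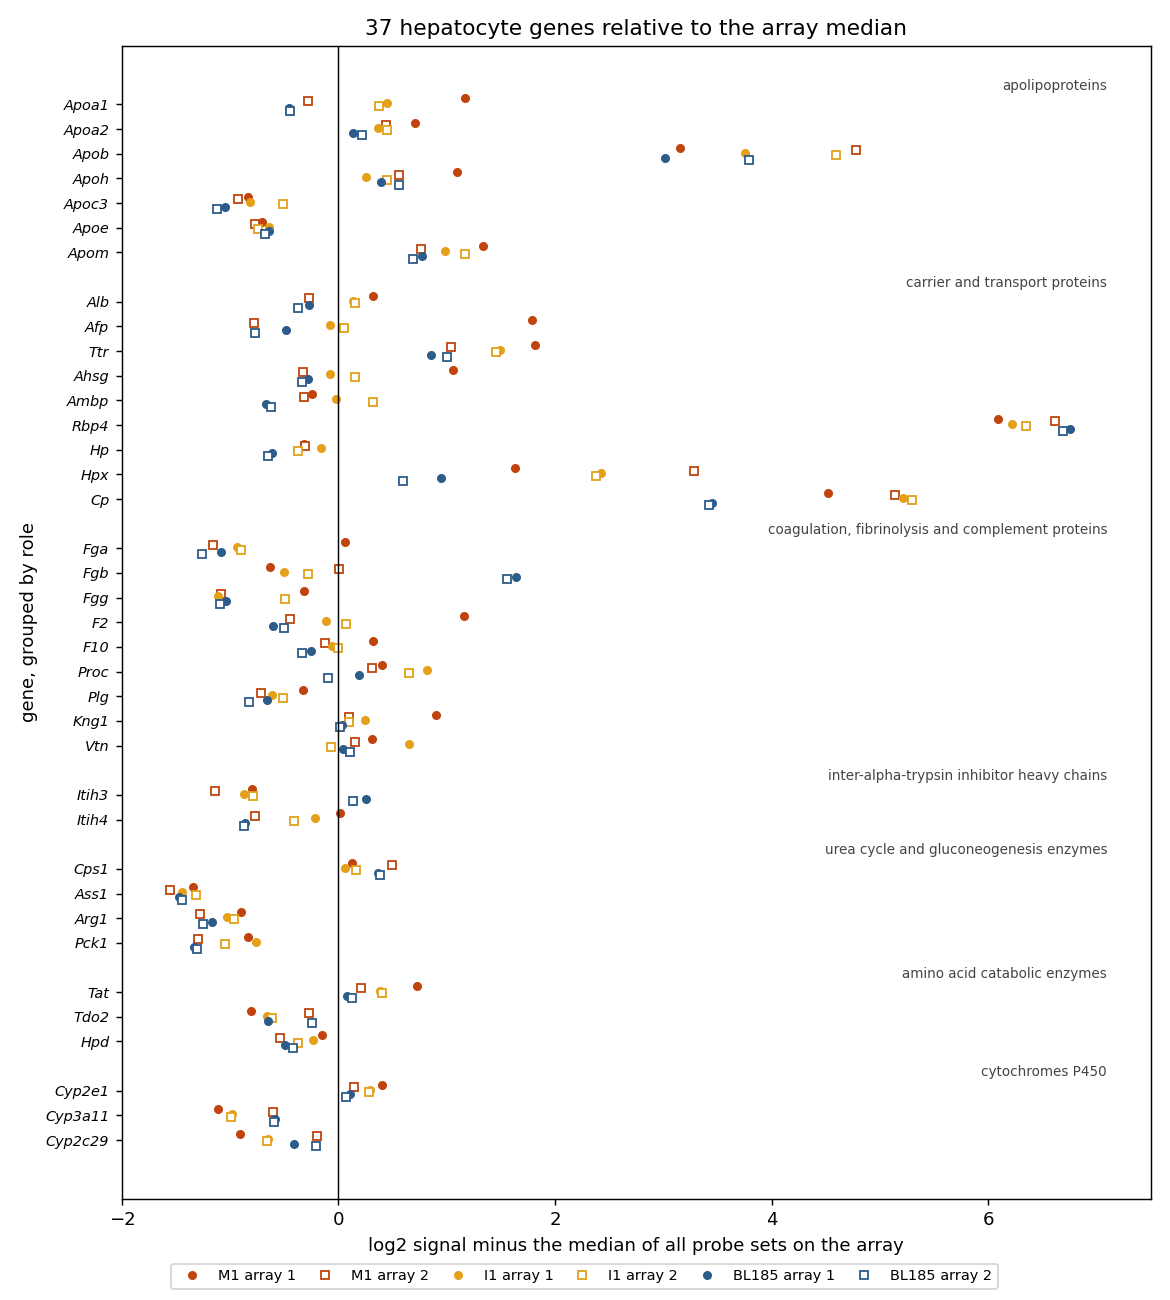
Each point is the log2 signal of 1 gene on 1 array minus the median of all probe sets on that array, with genes grouped by role down the page and M1 in red, I1 in yellow and BL185 in blue (filled for array 1, open for array 2). Rbp4, Cp and Apob stand at least 3.01 units above the median on every array, and most other genes lie close to the zero line or left of it.

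Being above the median is a low bar, which genes of unrelated tissues also pass. Of 35 measured genes of retina, muscle, brain, pancreas, testis and other organs, 10 (28.6%) were above the median on all 6 arrays, and 1, the myelin gene Mbp, was above the 75th percentile on all 6. No detection calls were used, so a gene slightly above the median cannot be told from background. In these bulk RNA values, fewer cells expressing a gene and less RNA per cell cannot be told apart.

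Among the apolipoprotein genes, 4 of 7 were above the median throughout. Apob, the structural protein of very-low-density lipoprotein, read 11.26 and 12.71 in M1, 11.70 and 12.54 in I1, and 10.88 and 11.70 in BL185. Array 2 was above array 1 in each line, and the ranges of M1 and I1 overlapped that of BL185. For I1 the overlap was slight, with 11.697 on I1 array 1 against 11.702 on BL185 array 2. Each M1 and I1 array was above the BL185 array of the same number, though the numbers are not treated as pairs. The log2 difference was 0.69 ± 0.60 (SE of the limma fit over all 6 arrays) for M1 minus BL185 and 0.82 ± 0.60 for I1 minus BL185, with adjusted p of 0.507 and 0.675. The M1 difference was 1.41 without array 1. A second Apob probe set was also above the median on all 6 arrays, though between 7.94 and 8.90.

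Apom, an apolipoprotein that carries sphingosine 1-phosphate on high-density lipoprotein, read 9.44 and 8.69 in M1, 8.92 and 9.11 in I1, and 8.64 and 8.60 in BL185. Both selected lines were above BL185 without overlap, by 0.45 ± 0.29 in M1 and 0.40 ± 0.29 in I1, neither past the test (adjusted p = 0.445 and 0.674). Without M1 array 1 the Apom difference in M1 was 0.07. A second Apom probe set read 7.24 and 7.26 in BL185, below the array median there. Apoa2, a second protein of high-density lipoprotein, read 8.81 and 8.37 in M1, 8.30 and 8.39 in I1, and 8.01 and 8.13 in BL185. Here too the arrays of M1 and I1 lay above those of BL185. Apoh, the phospholipid-binding beta-2-glycoprotein, read 9.20 and 8.48 in M1, 8.19 and 8.39 in I1, and 8.27 and 8.47 in BL185. Its M1 arrays were above BL185, the lower of them barely, and its I1 arrays overlapped BL185. A second Apoh probe set read 7.38 and 7.51 in BL185, below the array median there.

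Apoa1, the main protein of high-density lipoprotein, read 9.27 and 7.65 in M1, 8.39 and 8.32 in I1, and 7.42 and 7.47 in BL185. BL185 was below the array median on both arrays, I1 above it on both, and M1 split across it. The differences from BL185 were 1.02 ± 0.53 in M1 (adjusted p = 0.412) and 0.91 ± 0.53 in I1 (adjusted p = 0.614). Without M1 array 1 the M1 difference was 0.21. All 4 Apoa1 probe sets were higher in M1 and in I1 than in BL185. Apoe, which directs lipoprotein remnants to their receptors, read between 7.16 and 7.40 in M1, between 7.20 and 7.30 in I1, and 7.23 on both BL185 arrays. Apoc3, an inhibitor of lipoprotein lipase that lies next to Apoa1 on chromosome 9, was likewise below the median everywhere, by 0.51 to 1.12 units.

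The carriers included 2 of the 3 genes above the 75th percentile on all 6 arrays, Rbp4 and Cp. Cp was also the gene of the set called higher in I1. Rbp4, the retinol carrier of plasma, read 14.20 and 14.54 in M1, 14.16 and 14.29 in I1, and 14.63 and 14.60 in BL185, which is 6.09 to 6.76 units above the medians. All 4 arrays of M1 and I1 were below both BL185 arrays. The differences were small, -0.25 ± 0.19 in M1 and -0.39 ± 0.19 in I1 (adjusted p = 0.486 and 0.554). Without M1 array 1 the M1 difference was -0.08.

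Cp, the copper-binding ferroxidase ceruloplasmin, read 12.63 and 13.07 in M1, 13.16 and 13.24 in I1, and 11.32 and 11.33 in BL185. Every M1 and I1 array was more than 1 log2 unit above both BL185 arrays. Cp rose in I1 by 1.87 ± 0.21 log2 units, a 3.66-fold difference (limma, Benjamini-Hochberg adjusted p = 0.0466). Its difference in M1 was 1.52 ± 0.21, which missed the threshold (adjusted p = 0.0565). In M1 it was positive in all 18 alternatives and called in 4, among them quantile normalization and cyclic loess. The other M1 calls came from fits with 1 M1 array. I1 minus M1 was 0.35 ± 0.21 and was not called. Among the alternatives for I1, those without M1 array 1, without M1 array 2 and with only I1 and BL185 arrays gave identical values. All of these kept the call in I1, which held in 9 of 18 alternatives, all 18 with a positive difference. It was lost when any 1 array of I1 or BL185 was left out, where the adjusted p lay between 0.638 and 0.766 while the difference stayed between 1.83 and 1.92. With the mean of all Cp probe sets in place of the chosen one, the difference was 0.58 in M1 (adjusted p = 0.323) and 0.96 in I1 (adjusted p = 0.184).

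Cp has 8 probe sets, and they did not move as one. The chosen 1417494_a_at and 3 others, 1455393_at, 1417495_x_at and 1448734_at, were higher on every M1 and I1 array than on any BL185 array. For 1455393_at the values were 11.69 and 12.60 in M1, 12.48 and 12.66 in I1, and 10.36 and 10.14 in BL185. Of the other 4, 1417496_at was higher in both selected lines by a smaller margin, 0.21 in M1 and 0.65 in I1. The difference for 1448735_at was -0.77 in M1 and -0.01 in I1, and for 1417497_at it was -0.30 in M1 and -0.01 in I1. Both read lowest on M1 array 1, at 7.81 and 7.40. For 1441326_at, which lay below all the array medians, it was -0.35 in M1 and -0.44 in I1.

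**Figure D2:**
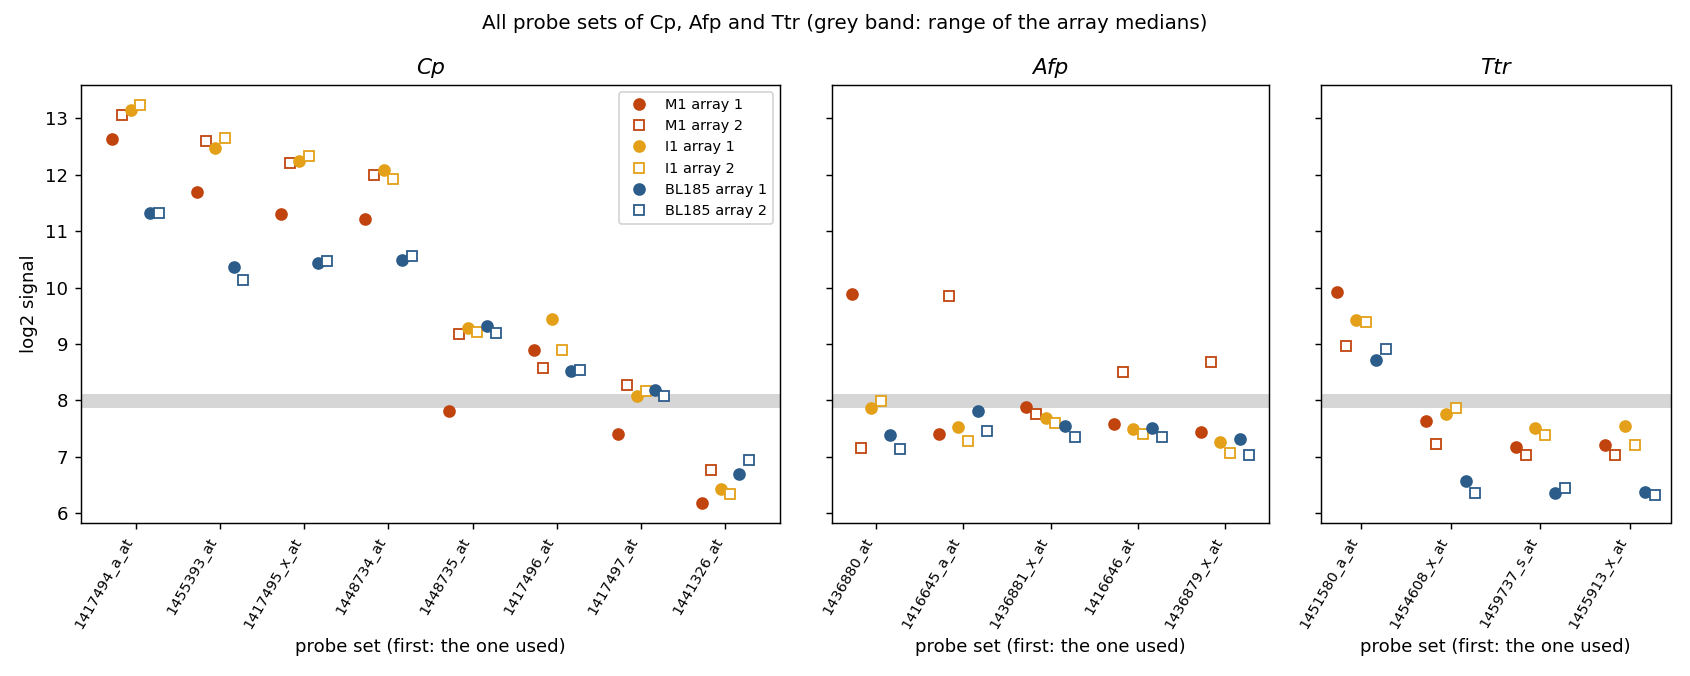
The log2 signal of every probe set of Cp (left), Afp (middle) and Ttr (right) on each array, with the probe set used placed first and a grey band for the range of the array medians (7.87 to 8.11). For Cp the first 4 probe sets separate M1 and I1 from BL185, whereas for Afp high values come from M1 array 1 in the first probe set and from M1 array 2 in 3 others.

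Hpx encodes hemopexin, which binds free haem. It read 9.74 and 11.21 in M1, 10.36 and 10.32 in I1, and 8.82 and 8.50 in BL185. Again no M1 or I1 array reached down to BL185, and the M1 arrays lay on either side of I1. The differences were 1.81 ± 0.49 in M1 and 1.68 ± 0.49 in I1, 3.51-fold and 3.21-fold. Neither passed the test on the deposited values of all 6 arrays (adjusted p = 0.199 and 0.271). Both passed limma after quantile normalization (adjusted p = 0.0233 and 0.0367) and after cyclic loess (0.0128 and 0.0220). Of 18 alternatives, 4 gave a call in M1 and 6 in I1. Without M1 array 1 the differences were 2.55 and 1.68, the first resting on M1 array 2 alone. Without M1 array 2 the M1 difference was 1.07. Hpx is read by a single probe set.

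Ttr, the carrier of thyroxine and of the retinol-binding protein, read 9.92 and 8.97 in M1, 9.43 and 9.40 in I1, and 8.72 and 8.91 in BL185. M1 and I1 were above BL185 on every array, although M1 array 2 cleared the higher BL185 array by little. The differences were 0.63 ± 0.34 in M1 and 0.60 ± 0.34 in I1 (adjusted p = 0.421 and 0.606), and 0.15 in M1 without array 1. Its 3 other probe sets lay below the array median on all arrays and were also higher in both selected lines. Their differences from BL185 were 0.70 to 0.97 in M1 and 1.03 to 1.35 in I1.

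Alb, albumin, the most abundant plasma protein, read 8.43 and 7.66 in M1, 8.07 and 8.10 in I1, and 7.60 and 7.53 in BL185. It was thus below the array median in BL185, above it in I1 and on both sides of it in M1. The differences were 0.48 ± 0.29 in M1 and 0.52 ± 0.29 in I1 (adjusted p = 0.436 and 0.595), and 0.09 in M1 without array 1. A signal this near the median does not separate expression from background.

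Afp, alpha-fetoprotein, the fetal relative of albumin that some liver tumours secrete and whose gene lies next to Alb on chromosome 5, read 9.89 and 7.15 in M1, 7.86 and 7.99 in I1, and 7.39 and 7.14 in BL185. M1 array 1 alone was far above the others, and the M1 arrays overlapped BL185. The difference of 1.25 ± 0.86 in M1 (adjusted p = 0.456) was -0.12 without that array. In the probe set 1416645_a_at the order of the M1 arrays was turned, at 7.40 and 9.86, with 7.53 and 7.28 in I1 and 7.81 and 7.46 in BL185. Probe sets 1416646_at and 1436879_x_at also read high on M1 array 2, at 8.50 and 8.68, and not on array 1.

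**Figure D3:**
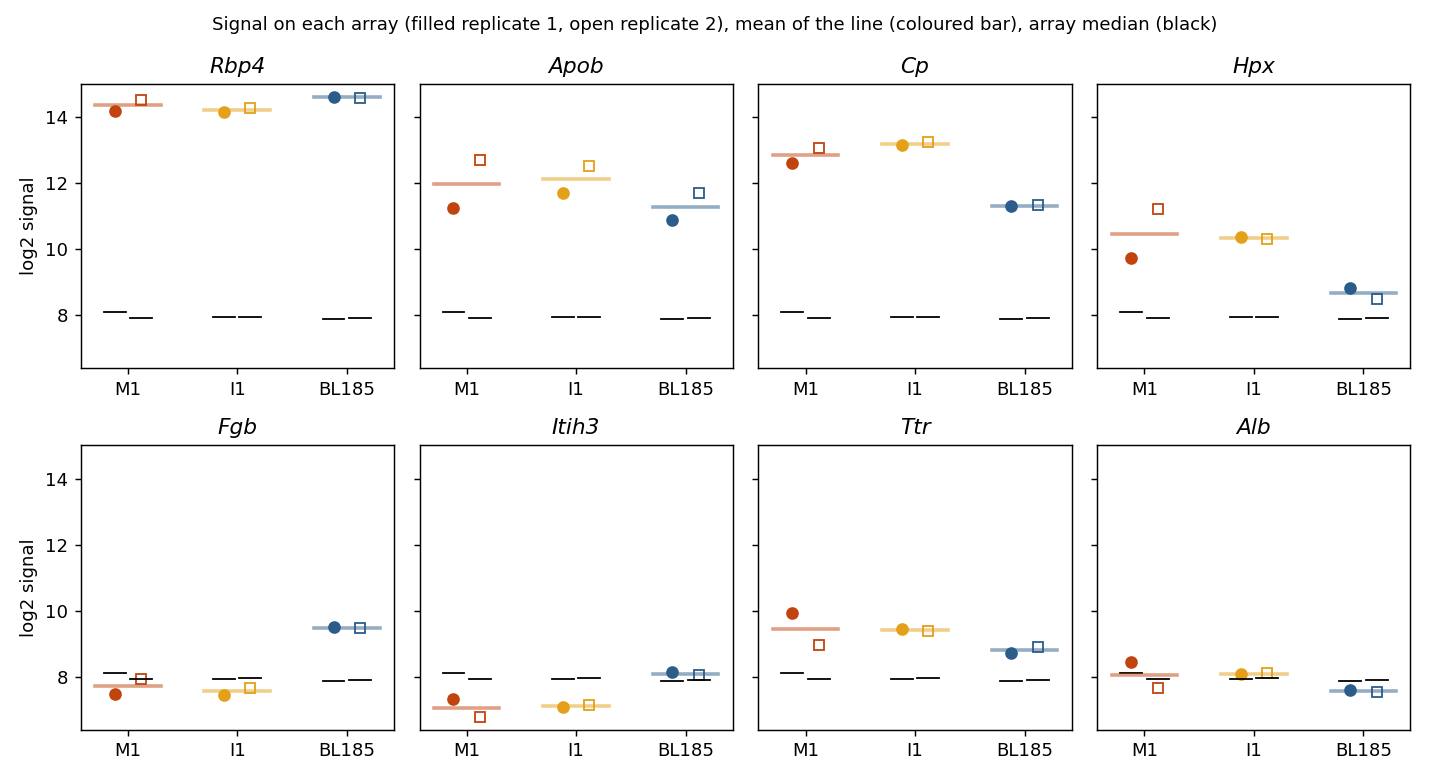
Log2 signal of 8 genes on each array (filled circle, array 1; open square, array 2), with a coloured bar at the mean of the 2 arrays of a line and a short black line at each array's median. Cp and Hpx are higher in M1 and I1 than in BL185, Fgb and Itih3 lower, and Alb lies between -0.38 and 0.32 log2 units from the array median on all 6 arrays.

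The remaining carriers were near the median. Ahsg, fetuin-A, an inhibitor of calcification, read 9.16 and 7.60 in M1, 7.87 and 8.10 in I1, and 7.59 and 7.57 in BL185, high on M1 array 1 alone. Ambp, the precursor of alpha-1-microglobulin and bikunin, differed from BL185 by 0.49 ± 0.21 in M1 and 0.85 ± 0.21 in I1 (adjusted p = 0.350 and 0.204), without overlap. Hp, haptoglobin, which binds free haemoglobin, was below the median on all 6 arrays, and the M1 and I1 arrays were above both BL185 arrays.

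Of the 9 measured genes for clotting, fibrinolysis and cell adhesion proteins of plasma, 1 was above the median throughout. Fgb, the beta chain of fibrinogen, was the gene of the set called lower in M1. It is read by a single probe set, at 7.47 and 7.93 in M1, 7.44 and 7.66 in I1, and 9.51 and 9.46 in BL185. Both selected lines lay near or below the array median, and all their arrays were below both BL185 arrays. Fgb fell by 1.78 ± 0.22 log2 units in M1, 3.44-fold (limma, adjusted p = 0.0469). Its difference in I1 was -1.93 ± 0.22, 3.82-fold lower, just beyond the threshold (adjusted p = 0.0501). The fall was thus not particular to M1, and I1 minus M1 was -0.15 ± 0.22. In I1 the difference was negative in all 18 alternatives and called in 11. The call in M1 held in 9 of 18 alternatives and the difference was negative in all 18. Those without I1 array 1, without I1 array 2 and with only M1 and BL185 arrays gave identical values and lost the call. Leaving out any 1 array of I1 or BL185 ended this call, where the adjusted p lay between 0.252 and 0.631 while the difference stayed between -1.76 and -1.81.

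Fibrinogen is assembled from the products of Fga, Fgb and Fgg, which lie next to one another on chromosome 3. Fga read 8.17 and 6.77 in M1, 7.0 and 7.05 in I1, and 6.79 and 6.65 in BL185. Fgg read 7.79 and 6.84 in M1, 6.83 and 7.45 in I1, and 6.84 and 6.81 in BL185. Neither showed the high BL185 values seen for Fgb: Fga was below the array median on 5 of 6 arrays and Fgg on all 6, and M1 array 1 was the highest for both.

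F2, prothrombin, read 9.27 and 7.48 in M1, 7.82 and 8.01 in I1, and 7.27 and 7.41 in BL185. The M1 difference of 1.03 ± 0.58 (adjusted p = 0.426) was 0.14 without array 1, and the I1 difference was 0.58 ± 0.58 (adjusted p = 0.734). Kng1, kininogen, the precursor of bradykinin, read 9.01 and 8.02 in M1, 8.18 and 8.04 in I1, and 7.90 and 7.92 in BL185. Its BL185 values exceeded the array medians by 0.03 and 0.01, so its place among the 12 rests on a narrow margin. A second Kng1 probe set, between 6.63 and 7.39, was below the median on every array.

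Proc, the anticoagulant protein C, was above the median on 5 of 6 arrays and read 8.51 and 8.23 in M1, 8.76 and 8.60 in I1, and 8.06 and 7.82 in BL185. Its difference in I1 was 0.74 ± 0.20 (adjusted p = 0.241). Vtn, the adhesion protein vitronectin, was also above on 5 of 6 arrays, between 7.88 and 8.60 over all lines. F10, coagulation factor X, was above the median on 1 array, M1 array 1, and Plg, plasminogen, the precursor of plasmin, on none.

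The 2 inter-alpha-trypsin inhibitor heavy chains, which link to hyaluronan or circulate in plasma, had differences from BL185 of opposite sign, although they lie next to each other on chromosome 14. Itih3 read 7.31 and 6.78 in M1, 7.07 and 7.15 in I1, and 8.13 and 8.04 in BL185. It was above the array median in BL185 and below it in both selected lines, with no overlap. The differences were -1.04 ± 0.23 in M1 and -0.97 ± 0.23 in I1 (adjusted p = 0.139 and 0.193). Of 17 alternatives, 4 gave a call in M1 and 6 in I1, among them quantile normalization and cyclic loess for both lines. Without array 1 the M1 difference was -1.30, resting on array 2 alone. Itih4 read 8.12 and 7.15 in M1, 7.72 and 7.53 in I1, and 7.01 and 7.04 in BL185, with differences of 0.62 ± 0.34 and 0.60 ± 0.34 that did not pass the test (adjusted p = 0.426 and 0.609). Its M1 difference was 0.13 without array 1.

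The enzyme genes of the set lay close to the array median or below it in all 3 lines. Other liver enzyme genes, some of them well above the median, are counted further below. Cps1, the mitochondrial enzyme that starts the urea cycle, read 8.23 and 8.42 in M1, 8.0 and 8.11 in I1, and 8.24 and 8.29 in BL185. It exceeded the array medians by 0.06 to 0.49 units, and I1 was below BL185 on both arrays by a difference of -0.21 ± 0.17 (adjusted p = 0.695). Ass1 and Arg1, which act later in the urea cycle, and Pck1, the gluconeogenic enzyme PEPCK, were below the median on all 6 arrays. Ass1, read by a single probe set, was 1.32 to 1.55 units below it.

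Tat, the tyrosine aminotransferase induced by glucocorticoids, read 8.83 and 8.13 in M1, 8.32 and 8.34 in I1, and 7.95 and 8.04 in BL185. Both selected lines were above BL185, by 0.49 ± 0.27 in M1 and 0.34 ± 0.27 in I1 (adjusted p = 0.424 and 0.691). Tat differed by 0.14 in M1 when array 1 was left out. Hpd, the next enzyme of tyrosine breakdown, and Tdo2, which opens the tryptophan ring, were above the median on no array.

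Cyp2e1, the cytochrome P450 that oxidises ethanol and small solvents, read 8.51 and 8.07 in M1, 8.23 and 8.23 in I1, and 7.97 and 7.98 in BL185. Its margin over the array median ran from 0.07 to 0.40. Cyp3a11 and Cyp2c29, P450 enzymes of drug metabolism, were below the median on all arrays and lower on both I1 arrays than in BL185, by -0.35 ± 0.19 and -0.29 ± 0.24 (adjusted p = 0.585 and 0.696).

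Taking all 37 genes, 1 was called in M1 minus BL185, Fgb, lower, against 0.879% of all genes called in either direction, 0.275% higher and 0.605% lower. In I1 minus BL185 1 was called, Cp, higher, against 0.511% of all genes, 0.192% higher and 0.319% lower. M1 and I1 were each compared with the same BL185 arrays, so the 2 comparisons are not independent. At an unadjusted p under 0.05, 4 of the 37 were reached in M1 (2 higher, 2 lower) and 6 in I1 (4 higher, 2 lower), against 15.4% and 11.6% of all genes. In I1 minus M1, 0 of 37 genes were called by limma, against 0.0% of all genes, and 0 of 37 had an unadjusted p under 0.05, against 409 of all 18194 genes. The I1 minus M1 differences of the 37 lay between -0.59 and 0.35.

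Without M1 array 1 far more was called. For M1 minus BL185 the genes that passed were 5 of 37, with 24.0% of all genes called: Apob (1.41), Hpx (2.55) and Cp (1.74) higher, and Fgb (-1.55) and Itih3 (-1.30) lower. For I1 minus BL185 they were 23 of 37, 19 higher and 4 lower, with 46.6% of all genes called. Of these 23, 3 differed by 2-fold or more: Hpx and Cp higher and Fgb lower. For I1 minus M1, 9 of 37 passed, with 20.6% of all genes called. These fits have 1 M1 array, whose spread is taken to equal that of I1 and BL185. It is array 2, which for Apob read above array 1 in each line.

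Counting only whether arrays separate, 22 of 37 genes were higher and 3 lower on both M1 arrays than on both BL185 arrays, against 26.2% and 25.7% of all genes. For I1, 25 were higher and 6 lower, against 42.6% and 33.5% of all genes. The mean difference from BL185 was positive for 32 of 37 genes in M1 and 29 in I1, with a median of 0.45 and 0.31 log2 units, against 0.07 and 0.06 over all genes. The same was seen in the genes of other tissues, whose medians were 0.46 in M1 and 0.29 in I1 with 33 and 32 of 35 positive.

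In M1 this shift was larger on 1 array. M1 array 1 was above M1 array 2 for 28 of the 37 genes (75.7%), against 43.5% of all genes, and for 31 of 35 genes of other tissues. The median difference from the BL185 mean was 0.63 on M1 array 1, 0.11 on M1 array 2, 0.29 on I1 array 1 and 0.33 on I1 array 2. Rescaling the arrays changed the medians to 0.35 in M1 and 0.26 in I1 with quantile normalization, and to 0.27 and 0.23 with cyclic loess. Array spread and the 18S signal moved with this shift, and their part in it was not tested.

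**Figure D4:**
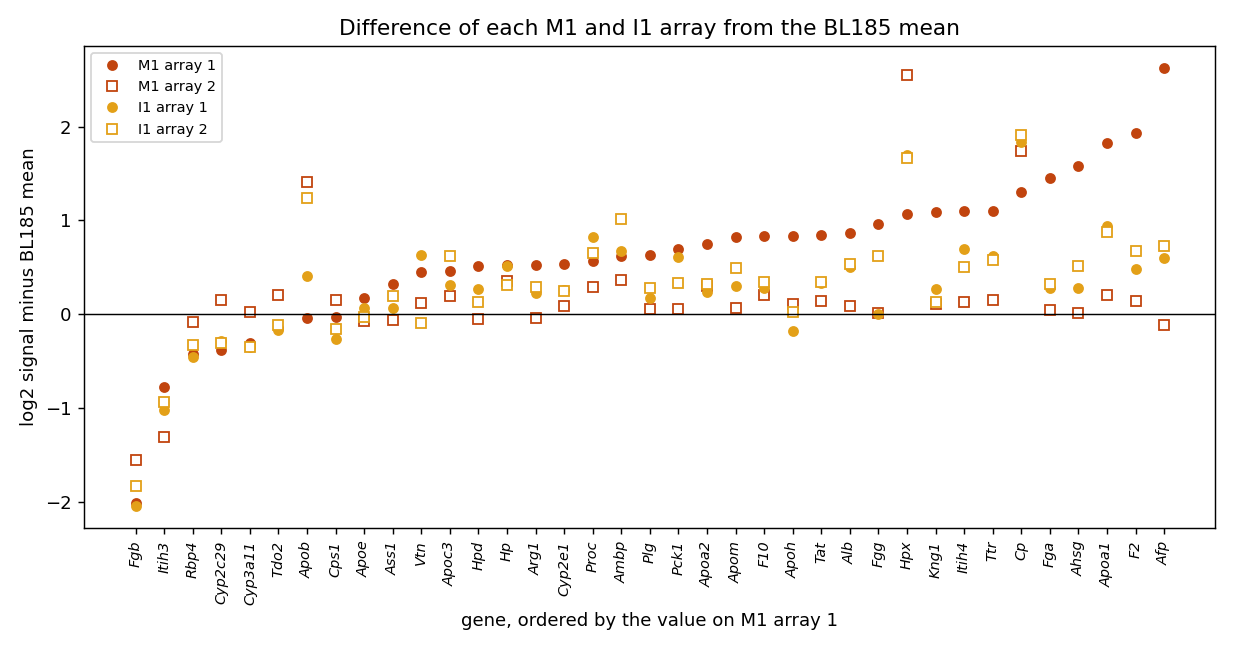
For each of the 37 genes, the log2 signal on each M1 array (red) and I1 array (yellow; filled, array 1; open, array 2) minus the mean of the 2 BL185 arrays, with genes ordered by M1 array 1. Most points lie above zero, M1 array 2 lies closest to zero with a median of 0.11, and Fgb, Itih3, Cp and Hpx are far from zero on all 4 arrays.

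Further liver genes outside the 40 were counted as well. Of 38 other hepatocyte secreted protein genes, 9 were above the median on all 6 arrays and 0 above the 75th percentile. Of 36 other hepatocyte metabolic genes, 11 were above the median and 3 above the 75th percentile, namely Pklr (liver pyruvate kinase), Hsd3b7 (bile acid synthesis) and Asl (urea cycle). In these 2 lists 1 gene was called higher and 1 lower in I1, and 1 lower in M1, against 0.511% of all genes in I1 and 0.879% in M1. C9, a component of the complement membrane attack complex, read 8.81 and 8.26 in M1, 10.44 and 10.69 in I1, and 7.86 and 8.10 in BL185. I1 stood clear of both other lines, and C9 rose in I1 by 2.58 ± 0.26 (adjusted p = 0.0370). Aqp9, the glycerol channel of hepatocytes, read 9.62 and 9.31 in M1, 10.49 and 10.69 in I1, and 12.73 and 12.76 in BL185. It fell by 3.28 ± 0.19 in M1 (adjusted p = 0.0121) and fell by 2.16 ± 0.19 in I1 (adjusted p = 0.0360), with no overlap between lines.

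Regulators of the liver programme were counted in the same way. Of 22 liver transcription factor genes, 12 were above the median on all 6 arrays and 6 above the 75th percentile, and 0 were called by limma in either selected line, with 4 in M1 and 3 in I1 at an unadjusted p under 0.05, against the 15.4% and 11.6% of all genes given above. Hnf4a, the nuclear receptor that binds many hepatocyte promoters, read 11.94 and 12.76 in M1, 13.01 and 13.34 in I1, and 12.83 and 12.91 in BL185. Foxa2, a forkhead factor of endoderm and liver, read 11.61 and 12.48 in M1, 12.08 and 12.27 in I1, and 11.66 and 11.77 in BL185. Cebpb, a C/EBP factor of the acute phase, read 11.75 and 12.33 in M1, 12.23 and 12.05 in I1, and 13.24 and 13.07 in BL185. For Cebpb all M1 and I1 arrays were below BL185, with differences of -1.12 ± 0.25 and -1.01 ± 0.25, without passing the test (adjusted p = 0.142 and 0.204).

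**Figure D5:**
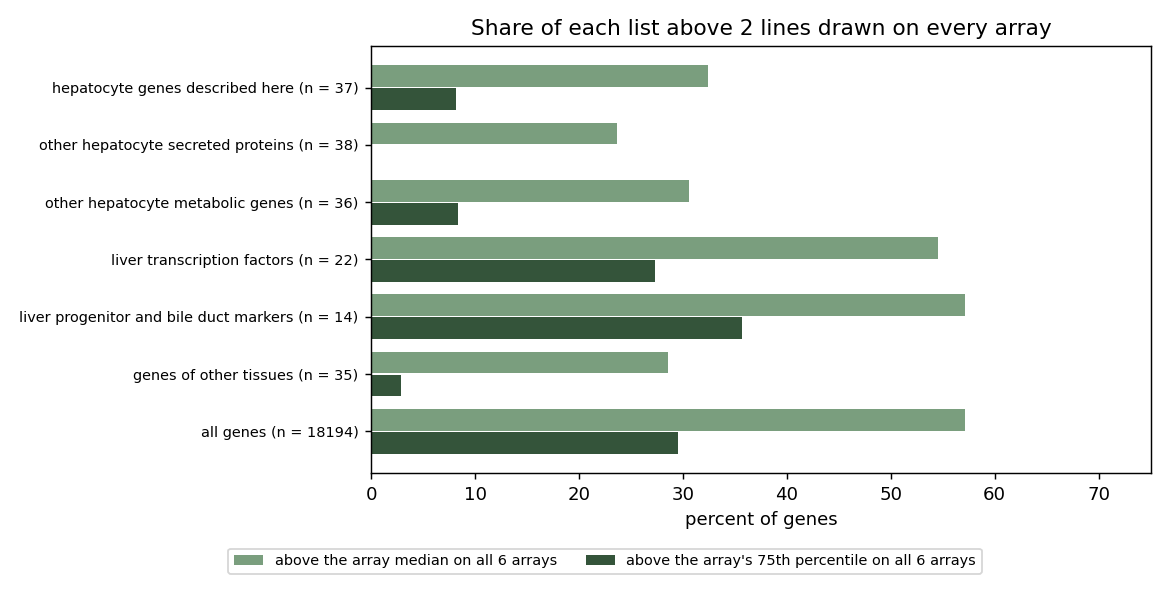
Percent of the genes of each list (number measured in brackets) above the array median on all 6 arrays (light bars) and above the array's 75th percentile on all 6 (dark bars). The 37 hepatocyte genes (32.4%) and the genes of other tissues (28.6%) fall below all genes (57.1%), while liver transcription factors and progenitor and bile duct markers are close to all genes.

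Markers of other cells of the liver were read alongside. Of 14 liver progenitor and bile duct markers, 8 were above the median on all 6 arrays and 5 above the 75th percentile. Krt19, a keratin of bile duct cells, read 14.59 and 14.77 in M1, 15.04 and 15.08 in I1, and 14.97 and 15.01 in BL185. Within this list Prom1 (CD133) fell by 2.93 ± 0.21 in M1 (adjusted p = 0.0168) and fell by 2.74 ± 0.21 in I1 (adjusted p = 0.0291), and Sox9, a factor of bile duct cells, fell by 2.06 ± 0.23 in M1 (adjusted p = 0.0343). Over the whole list the difference from BL185 was positive for 8 of 14 genes in M1 and 9 in I1, with medians of 0.09 and 0.12.

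Of 11 macrophage and leukocyte markers, 6 were above the median on all 6 arrays, and their summed log2 signal was 95.5 and 90.6 in M1, 94.3 and 93.5 in I1, and 94.7 and 94.9 in BL185. Cd68 fell by 3.21 ± 0.21 in M1 (adjusted p = 0.0148) and fell by 3.05 ± 0.21 in I1 (adjusted p = 0.0262), and Cd53 fell by 1.66 ± 0.21 in M1 (adjusted p = 0.0469). The difference was nevertheless positive for 8 of the 11 markers in M1 and 9 in I1, with medians of 0.21 and 0.30. The calls of C9, Aqp9, Prom1, Sox9, Cd68 and Cd53 also end when any 1 array of I1 or BL185 is left out, since 0 genes were then called in either comparison with BL185. Ptprc, which encodes CD45, the defining leukocyte marker, was below the median on every array, at 7.17 and 6.27 in M1, 6.52 and 6.80 in I1, and 6.25 and 6.25 in BL185. Of 10 endothelial markers 3, and of 11 stellate cell and fibroblast markers 3, were above the median on all 6 arrays. In M1 and I1, 0 of either list were called by limma, against 0.879% and 0.511% of all genes. At an unadjusted limma p under 0.05 there were also 0, against 15.4% and 11.6% of all genes. No probe set read 0 on these arrays, and the part of these markers in the hepatocyte values was not tested.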

How the data were processed

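RNA from BL185, M1 and I1 cells was isolated with Trizol and labelled with a 3′ IVT kit, per the labels' protocols, and read on 6 Affymetrix mouse arrays. The authors deposited log2 values summarised to probe sets with RMA and affy, per the submitters' processing notes. Their versions and settings were not given in the sources used here. The log2 scale was inferred from the values, and the number of arrays limits their precision.

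The platform annotation assigned 34958 of 45101 probe sets to 1 gene and 932 to several, and 64 were controls. Of the 1-gene probe sets 34754 were matched to RefSeq genes of GRCm38.p6 and 0 symbols changed. For each of 18194 genes the probe set with the highest mean over all arrays was kept (9012 genes had more than 1). One linear model over all 6 arrays gave the line means (limma 3.58.1, R 4.3.3, with 3 residual and 2.27 prior degrees of freedom), and its eBayes step tested each selected line against BL185 and I1 against M1. p-values were adjusted over all genes of a contrast by Benjamini-Hochberg, with a threshold of 0.05. The median of an array was taken over all its probe sets. Promoters were read with Python 3.11.15, and the fit was tested on simulated data.

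The genes and all lists were chosen with earlier results of these data known. Values on every array are given for genes above the median on all 6 arrays, called in any contrast, or differing by at least 1 without overlap, and for Alb, Afp, Ttr and Apoa1; further genes of the set are described where their role calls for it. Of the other lists, called genes and up to 3 genes furthest above the median could be named; Ptprc was added after its values were seen. Alternatives changed the probe set rule, the scaling, the filter, the moderation, the replicate block and the arrays used.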

Additional observations from a re-analysis of the deposited data

Results flagged for a closer look

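These probe sets were not used for the comparisons, because another probe set of the gene had a higher mean, and they read above both BL185 arrays by a wide margin. For Cp, 1455393_at read 11.69 and 12.60 in M1 and 12.48 and 12.66 in I1. The Cp probe set 1417495_x_at read 12.22 on M1 array 2, and 12.24 and 12.33 in I1. A further Cp probe set, 1448734_at, read 12.002 on M1 array 2, and 12.09 and 11.93 in I1. The Afp probe set 1416645_a_at read 9.86 on M1 array 2, against 7.40 on M1 array 1. The Apoa1 probe set 1438840_x_at read 9.48 on M1 array 1, against 7.65 on M1 array 2. No line has 4 or more arrays, so single arrays were not tested as outliers within a line.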

How the results depend on the processing

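How many of the 37 genes were above the median on all 6 arrays depended on the line drawn: 12 with the median of all probe sets, 3 with the median of the genes' chosen probe sets (5 in M1, 6 in I1, 4 in BL185), 3 with the array median plus 1 (5, 5 and 4), 3 with the 75th percentile (4, 4 and 3), and 7 where every probe set of the gene had to be above (8 in M1, 9 in BL185). Leaving out 1 array gave 12 to 13 over all lines, 14 to 22 in M1, 15 to 19 in I1 and 15 to 16 in BL185.

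For M1 minus BL185, the genes of the set called (1) and all genes called (160) became 4 and 1176 with quantile normalization, 4 and 1831 with cyclic loess, 0 and 57 with median centring, and 0 and 243 with every probe set tested. All genes called were 338 with the mean of probe sets and 312 with array weights, and robust eBayes left 0 of the set. With only the arrays of the compared lines both were 0. For I1 minus BL185 (1 and 93), they became 4 and 981 with quantile normalization, 4 and 1544 with cyclic loess, 0 and 23 with median centring, 2 and 172 with every probe set, 22 and 8550 with array weights, and 23 and 8482 with only the arrays of the compared lines. A minimum mean of 8 or adding 50 gave 2 of the set, and robust eBayes 0. For I1 minus M1, all genes called were 0, and 1 with the minimum mean, 6 with quantile normalization, 51 with cyclic loess and 2 with array weights.

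The share of called genes that were higher in M1 was 31.2%, against 53.8% with quantile normalization, 46.3% with cyclic loess and 8.77% with median centring, and in I1 37.6%, against 62.0%, 49.5% and 8.70%. Leaving out 1 array moved the genes of the set called between 0 and 31 in M1, 0 and 23 in I1 and 0 and 19 between the selected lines, and all genes called between 0 and 12879, 0 and 8482, and 0 and 10365. The highest counts came without 1 of the M1 arrays, and the count for all genes was 0 without any 1 array of I1 or BL185 in both comparisons with BL185.

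For I1 minus M1, leaving out 1 array changed the sign for 8 of the 9 genes followed, all but Cp, with ranges of -0.92 to 0.70 for Apoa1, -1.35 to 0.44 for F2, -1.96 to 0.78 for Afp, -0.51 to 0.45 for Ttr, -0.87 to 0.61 for Hpx, -0.35 to 0.43 for Alb, -0.38 to 0.08 for Fgb and -0.20 to 0.33 for Itih3. The sign turned without M1 array 1 for the first 4 and without M1 array 2 for the other 4. These differences were not called with all 6 arrays.

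Arrays of the same number did not vary together in all pairs of lines (r across genes of array 1 minus array 2 was -0.13 for M1 and BL185, 0.16 for I1 and BL185 and 0.37 for I1 and M1), so the numbers are not treated as pairs. With the replicate block, 0 of the set and 38 genes were called in M1, and 0 and 1 in I1. With the numbers of M1 crossed, chosen after seeing the data, 0 and 0 were called in M1.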
